A study of Mus musculus with 9 samples.

Results

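The axon guidance ligands and receptors of mouse were described here in an iCLIP experiment on the mRNA-binding protein Chtop. They are the genes whose symbol in the deposited tables names a semaphorin of classes 3 to 7, a plexin, a Robo, a Slit, an Unc5 receptor, Dcc, Neo1, a netrin, a neuropilin, an Eph receptor or an ephrin. The rule used symbols and set no threshold on a measured value, and it found 45 of the 22442 genes in the count tables. The symbols of 23 of them come from the deposited table of isoform values, so being named can depend on the counts. RefSeq symbols of GRCm38.p6 that fit the same pattern number 70, and genes without a symbol in the deposited tables could not be found.

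iCLIP crosslinks RNA to protein with ultraviolet light, recovers the protein with an antibody and counts the attached RNA. The cells were of the mouse neuroblastoma line N2a, in Flp-In rtTA derivatives that express a FLAG-tagged cDNA when doxycycline is given (2 µg/mL for 24 hours), and were crosslinked at 254 nm with 0.15 J/cm2. The groups were FLAG-Chtop with exon 5 and FLAG-Chtop without exon 5, each with 3 anti-FLAG libraries from replicates that the labels call biological and processed on different days. They were set against 3 size-matched input libraries, made from 2% of the lysate without the antibody step. Input replicate 1 came from the line without exon 5, input replicate 2 from the line with exon 5, and input replicate 3 from a line that expresses FLAG-GFP. All the lines also hold their own Chtop gene, the tagged forms were made from an induced transgene, and each isoform was studied in a single line.

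Growing axons are steered by secreted or membrane-bound cues that bind receptors on the growth cone. Semaphorins act through plexins, the class 3 members mostly with neuropilins as co-receptors. Slits act through Robos, netrins through Dcc, Neo1 and the Unc5 receptors, and ephrins through Eph receptors, which are tyrosine kinases. The receptors turn cue binding into changes of small GTPases, actin and microtubules in the growth cone. Neuroblastoma cells derive from the sympathetic neuron lineage, in which several of these families are active. Chtop is a nuclear protein that binds RNA and takes part in mRNA export.

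The isoform libraries held 624062 to 1844970 counts and the inputs 75504 to 173342 counts. A count of 3 in a library, the most that a count of 0 allows, stood for 2.1 to 5.51 CPM in the isoform libraries and 16.3 to 21.1 CPM in the inputs. CPM are counts scaled to library size, as counts per 1e6, after scaling with edgeR's TMM factors. The limit on what could be seen was therefore set by the inputs, and it covers counting error only. Of 13 neuron and neuroblastoma markers, 9 had a symbol here and all 9 were counted. Their summed level ranged over 1530 to 1820 CPM with exon 5, 1040 to 1220 CPM without exon 5 and 564 to 1280 CPM in the inputs, and the part of this in any result was not tested. Summed glial markers (3 of 8 named) reached at most 16.8 CPM with exon 5, 37.6 CPM without exon 5 and 7.04 CPM in the inputs. Fibroblast and endothelial markers (6 of 8 named, Col1a2, Col3a1 and Dcn at 0) reached at most 1.43, 5.88 and 70.4 CPM in the same order of groups, and blood cell markers (3 of 7 named, Hba-a1 at 0) at most 1.43, 1.18 and 6.01 CPM. Chtop itself had 353, 392 and 378 CPM with exon 5, 272, 220 and 204 CPM without exon 5, and 456, 54.5 and 0 CPM in the inputs.

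Of the 45 guidance genes, 34 had at least 1 count and 23 were counted in all 6 isoform libraries. Only 9 were counted in all 9 libraries. The 11 at 0 everywhere were the ephrin Efnb1, the Eph receptors Epha7 and Ephb6, the netrin Ntn5, the plexin Plxna2, the Slit receptors Robo1 and Robo4, and the semaphorins Sema3a, Sema3c, Sema3d and Sema5a. Sema3e had 6 counts, all of them in an input. Both named Robos and 3 of the 5 class 3 semaphorins were thus not detectable at this depth. In these cultures, fewer cells with a transcript and less of it per cell cannot be told apart.

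The filter on low counts left 27 guidance genes to test as gene totals. A gene that passed it only through the isoform libraries had to be high there. Counts over the tested genes, and calls of genes that passed only through the isoform libraries, are therefore descriptions. The deposited names also select: 23 of the guidance genes are named by the table of isoform values and 22 by the table of part lengths. Over all tested genes, 12.8% of those with a name from the isoform table were called higher with exon 5 than in the inputs, against 0.471% of those named only by part lengths. The corresponding shares without exon 5 were 12.6% and 0.336%.

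Together the guidance genes took 0.418%, 0.481% and 0.431% of the counts with exon 5, and 0.421%, 0.438% and 0.396% without exon 5. They took 0.556%, 0.451% and 0.589% in the inputs. The isoform groups overlapped each other, and input replicate 2 lay within the range of the libraries with exon 5. The 22 receptors, of which 17 were counted, summed to 3680 ± 419 CPM with exon 5, 3480 ± 164 CPM without exon 5 and 2830 ± 420 CPM in the inputs (SD, n = 3 each). The 23 ligands, of which 17 were counted, summed to 1620 ± 195 CPM with exon 5, 1560 ± 113 CPM without exon 5 and 882 ± 343 CPM in the inputs. Neither sum was tested. The shares are of raw counts, while CPM are also divided by TMM factors. These were 0.7747 to 0.8933 in the isoform libraries and 1.0589 to 1.88 in the inputs. This scaling lowers the inputs against the isoforms. The mean share was thus larger in the inputs, while the summed CPM was lower there. Overlap of groups is stated in TMM-scaled CPM and can differ by library size alone.

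**Figure D1:**
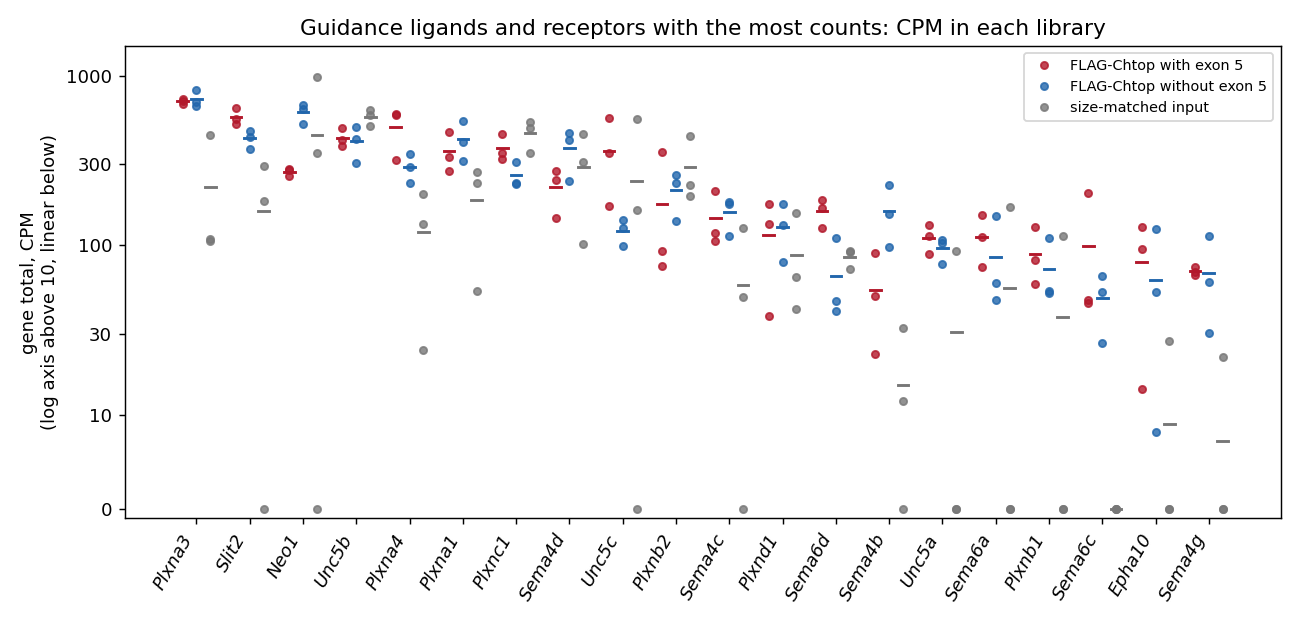
Gene total in CPM (vertical axis, logarithmic above 10 and linear below) of the 20 guidance genes with the highest mean over the 6 isoform libraries. Each point is a library, each short line the mean of a group's 3 libraries, and the groups are, from left to right, with exon 5 (red), without exon 5 (blue) and input (gray). The isoform points of Plxna3 and Plxna4 lie above all their input points, and input libraries reach 0 for genes such as Slit2, Neo1 and Unc5c.

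Per kilobase of gene model, Plxna3 had the highest level of the guidance genes in both isoforms. Its level was 102 ± 3.33 CPM per kilobase with exon 5, 105 ± 11.7 without exon 5 and 31.9 ± 28.5 in the inputs (SD, n = 3 each). Over the 6 isoform libraries it spanned 95.6 to 118 CPM per kilobase and did not overlap with Unc5b, the next in order, which spanned 52 to 85.6. Below Plxna3 the neighbours overlapped. Neo1 (34.6 to 90.7), Sema4d (27.3 to 87.1), Slit2 (36.8 to 63.8), Plxna1 (30.6 to 60.3), Plxnc1 (31.2 to 60.9), Sema4c (25.7 to 50.9) and Plxnb2 (13.7 to 64.2) followed in that order. In the inputs the order differed: Unc5b came first with 97.8 ± 10.7 CPM per kilobase, then Plxnc1 with 62 ± 13.2 and Neo1 with 60.3 ± 67.7, while Plxna3 came in place 6. The input values rest on few counts, and the test of each gene is given below.

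Ligands are described first. Slit2, a secreted repellent that binds Robo receptors, lies on chromosome 5 from 47981291 to 48307735 (GRCm38.p6), with a 5' UTR of 1902 bases, a CDS of 4697 and a 3' UTR of 3495 in the deposited lengths. It had 520, 644 and 553 CPM with exon 5, 371, 473 and 436 CPM without exon 5, and 0, 294 and 183 CPM in the inputs. Every isoform library was above every input after TMM scaling, though not by library size alone, and the 2 isoform groups did not overlap. Neither difference passed the edgeR quasi-likelihood test with Benjamini-Hochberg adjustment: the log2 fold over input was 1.84 with exon 5 (SE 0.98, adjusted p = 0.225) and 1.42 without exon 5 (SE 0.96, adjusted p = 0.359), and 0.42 between the isoforms (SE 0.93, adjusted p = 1). Under a correction for the trend with gene length, the folds were -0.41 with exon 5 and -0.77 without exon 5. That correction also takes out the general level of the isoforms over input at each length. Its negative values here and below thus mean lower than genes of like length, not lower than input.

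Most Slit2 counts lay in the 5' UTR. That part makes up 18.8% of the gene model, and it held 258 of 364, 224 of 451 and 462 of 591 Slit2 counts with exon 5, and 131 of 202, 315 of 402 and 411 of 623 without exon 5. These shares averaged 66.2 ± 14.8% with exon 5 and 69.7 ± 7.5% without exon 5 (SD, n = 3 each). In the inputs 19 of 54 counts lay there in replicate 2 and 0 of 26 in replicate 3, and replicate 1 had no Slit2 count. A library with 26 counts and 0 in a part allows up to 3 counts there.

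Among 3466 genes with a 5' UTR entry and at least 100 counts in the isoform libraries, the median share of the 5' UTR was 4.4%, Slit2 stood at 68.4%, and 17 genes had a higher share. Only 13 others had a 5' UTR at least as long. Slit2 alone supplied 1801 of the 2566 counts (70.2%) that all guidance genes had in 5' UTRs in the isoform libraries, and 19 of the 41 in the inputs. Without Slit2, the 5' UTR share of the guidance genes was 2.61% to 6.1% with exon 5, 2.12% to 3.01% without exon 5 and 0% to 3.02% in the inputs.

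A test of 5' UTR counts was added after these values had been seen. It covered 661 genes, of which 41.1% were called higher with both isoforms than in the inputs, and 4 guidance genes. Slit2 was higher by 3.80 on the log2 scale (SE 1.32, edgeR quasi-likelihood adjusted p = 0.0323) and Plxna3, with 0 counts in all inputs, by at least 3.28-fold (fit adjusted p = 0.0156). Slit2 and Plxna3 both passed the filter here only through the isoform libraries, so both calls are descriptions. The median log2 fold was 5.15 for the 4 guidance genes and 3.53 for all 661, so that both calls lie in a part of the data where calls were frequent. The Slit2 call was lost on leaving out replicate 1 (adjusted p = 0.0583) or 2 (0.0623) with exon 5, replicate 1 without exon 5 (0.0528) or input replicate 1 (0.0544). Without input replicate 2 its log2 fold was 10.98 against inputs at 0.

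Slit3, the other Slit counted, had 8.57, 35.7 and 60.8 CPM with exon 5, 23.9, 97.6 and 15.4 CPM without exon 5, and 0, 0 and 148 CPM in the inputs. Its groups overlapped, and none of its counts lay in its 5' UTR in either isoform.

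The class 6 semaphorin Sema6c, a transmembrane ligand, was the only guidance gene called in gene totals. It lies on chromosome 3 from 95160420 to 95174050. It had 45.7, 204 and 47.7 CPM with exon 5, 53.3, 65.8 and 26.6 CPM without exon 5, and 0 CPM in all inputs. Every isoform library was above the inputs, whose limit for a count of 0 averaged 18.5 CPM. The level was at least 5.36-fold that limit with exon 5 (edgeR quasi-likelihood adjusted p = 0.029) and at least 2.63-fold without exon 5 (adjusted p = 0.0462). Sema6c passed the filter only through the isoform libraries, so these calls are descriptions.

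Replicate 2 with exon 5 weighs on this value. It held 143 Sema6c counts, 24 of them in the CDS, and the 5' UTR held 133 of the 226 counts of the group against 0 of 123 without exon 5. Without that library the bound with exon 5 was at least 2.53-fold. The call was made in 8 of 19 settings with exon 5 and in 4 of 18 without exon 5, and was lost on leaving out any isoform library.

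Against this single gene, 8.31% of all 8342 tested genes were called higher with exon 5 than in the inputs and 0.863% lower. Without exon 5 the shares were 8.12% higher and 0.587% lower, also with 1 of 27 guidance genes, Sema6c, higher and 0 lower. The median log2 fold over input of the 27 was 0.94 with exon 5 and 0.57 without exon 5, against 1.03 and 1.03 for all genes. Tested genes with a name from the isoform table, as most of the 27 have, had medians of 1.55 and 1.57. The comparisons with and without exon 5 share the same inputs. At an unadjusted p under 0.05 there were 4 of 27 guidance genes with exon 5 and 6 of 27 without exon 5, against 2432 and 2381 of all 8342 genes.

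The class 4 semaphorins are membrane-bound ligands that act mostly through plexins of class B and D. Sema4d, known for its receptor Plxnb1, had 144, 244 and 273 CPM with exon 5, 241, 417 and 460 CPM without exon 5, and 102, 452 and 310 CPM in the inputs. All 3 groups overlapped. Its counts lay differently in the gene: the CDS held 59.4%, 78.9% and 58.6% of them with exon 5, 42%, 43.4% and 49.9% without exon 5, and 0%, 18.1% and 0% in the inputs.

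All isoform libraries thus had a larger CDS share than any input, and the isoforms did not overlap. In the test of part use (diffSpliceDGE of edgeR, CDS against 3' UTR, both isoforms over input) the CDS of Sema4d was higher by 3.50 on the log2 scale, at a Benjamini-Hochberg adjusted p of 0.102. That was the lowest adjusted p of the 17 guidance genes in that test. The inputs give 15 CDS counts, all in input replicate 2. Without that library the input CDS was at 0, and diffSpliceDGE gave a log2 difference of 10.11 with adjusted p = 0.00806. That fit compares with 0, so it gives no size and is no stronger result. It was the only 1 of 13 settings that passed. Over these settings the log2 difference ran from 2.86 to 10.11 and the adjusted p from 0.00806 to 0.193.

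Sema4b had 22.9, 89.9 and 50.5 CPM with exon 5, 153, 97.6 and 227 CPM without exon 5, and 12, 32.7 and 0 CPM in the inputs. The libraries with exon 5 were all below those without exon 5, and the lowest without exon 5 was above every input. Without exon 5 its log2 fold over input was 3.36 (SE 1.24, edgeR quasi-likelihood adjusted p = 0.0931), and with over without exon 5 it was -1.55 (SE 1.09, adjusted p = 1).

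In the 3' UTR Sema4b had 66 counts with exon 5, 185 without exon 5 and 1 in the inputs. For both isoforms together the ratio of summed counts was 38.3 (exact 95% interval 6.81 to 1520, which leaves out the spread between libraries), and the fit gave an adjusted p of 0.0498. Sema4g, another class 4 semaphorin, had 44, 35 and 16 counts in its 3' UTR with exon 5, 8, 5 and 100 without exon 5, and 0 in all inputs. It was at least 3.24-fold above the input limit for both isoforms together, with adjusted p = 0.0379. Sema4b and Sema4g passed the filter there only through the isoform libraries, so both calls are descriptions. In replicate 3 without exon 5 Sema4g was far above the other libraries of its group, and without that library its bound was at least 2.42-fold.

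Sema4c had 119, 106 and 209 CPM with exon 5, 180, 114 and 176 CPM without exon 5, and 126, 0 and 49.3 CPM in the inputs. Sema4a had 0, 37.1 and 115 CPM with exon 5, 60.6, 67 and 59.5 CPM without exon 5, and 234, 0 and 0 CPM in the inputs. In both genes the isoform groups overlapped each other and the inputs, although Sema4a was close to even among the libraries without exon 5.

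Of the other class 6 semaphorins, Sema6d had 186, 167 and 126 CPM with exon 5, 110, 41.2 and 46.9 CPM without exon 5, and 72.1, 92.6 and 91.6 CPM in the inputs. The libraries with exon 5 were all above the others after TMM scaling, and those without exon 5 overlapped the inputs. The log2 fold with over without exon 5 was 1.28 (SE 0.90, adjusted p = 1 in edgeR's test). Sema6a had 150, 74.2 and 112 CPM with exon 5, 149, 60 and 47.6 CPM without exon 5, and 0, 169 and 0 CPM in the inputs, with overlap throughout.

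Of the secreted class 3 semaphorins only Sema3g reached the filter. It had 11.4, 42.8 and 11.2 CPM with exon 5, 9.19, 0 and 0 CPM without exon 5, and 48.1, 114 and 0 CPM in the inputs. The isoform groups did not overlap, on totals of 8, 30 and 12 counts with exon 5 and 5, 0 and 0 without exon 5. Its log2 fold with over without exon 5 was 2.92 (SE 1.80, edgeR adjusted p = 1), the highest of the 27 and among the least certain. Sema5b and Sema7a, of classes 5 and 7, averaged 0.312 ± 0.54 and 1.43 ± 2.47 CPM with exon 5, 0 and 4.31 ± 7.47 CPM without exon 5, and 2 ± 3.47 and 0 CPM in the inputs (SD, n = 3 each).

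The ephrins and netrins that the symbol rule found were sparse. Efna2, a membrane-anchored ligand of EphA receptors, had 34.3, 0 and 2.81 CPM with exon 5, 34.9, 9.41 and 39.2 CPM without exon 5, and 0 in all inputs. Without exon 5 it was at least 1.5-fold above the input limit (edgeR adjusted p = 0.143). Efnb2, a transmembrane ephrin, had 20, 0 and 108 CPM with exon 5, 29.4, 21.2 and 21 CPM without exon 5, and 0, 54.5 and 0 CPM in the inputs. A single library carried most of its counts with exon 5 (115 of 129). Ntn4, the only netrin of the rule that was counted, had 55.7, 0 and 0 CPM with exon 5, 0, 0 and 16.1 CPM without exon 5, and 0 in the inputs, and was not tested.

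Receptors are described next, beginning with the plexins. Plexins are the signalling receptors of semaphorins and act on small GTPases through a domain inside the cell. Summed over the 7 plexins counted, of 8 named, the level was 2320 ± 208 CPM with exon 5, 2110 ± 179 CPM without exon 5 and 1400 ± 177 CPM in the inputs (SD, n = 3 each).

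Plxna3, which acts with neuropilins as a receptor for class 3 semaphorins, lies on the X chromosome from 74328290 to 74344689. It had 683, 728 and 714 CPM with exon 5, 663, 820 and 704 CPM without exon 5, and 450, 109 and 106 CPM in the inputs. After TMM scaling, all isoform libraries were above all inputs and the isoforms overlapped. By library size alone, input replicate 1 (75 of 111982 counts) was above all libraries with exon 5. It was then also above replicates 1 and 3 without exon 5. The log2 fold over input was 1.67 with exon 5 (SE 0.66, adjusted p = 0.108) and 1.72 without exon 5 (SE 0.66, adjusted p = 0.105), and the log2 difference between isoforms was -0.04 (SE 0.63), all in edgeR's quasi-likelihood test. Under the length correction, which sets Plxna3 against genes of like length, the folds were -0.71 with exon 5 and -0.63 without exon 5.

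Its 3' UTR had 67, 123 and 142 counts with exon 5, 84, 158 and 162 without exon 5, and 7, 1 and 0 in the inputs. Both isoforms together were higher there by 3.78 on the log2 scale (SE 1.20, edgeR adjusted p = 0.0395). The 3' UTR of Plxna3 passed the filter only through the isoform libraries, so this call is a description. In the CDS the log2 fold was 1.30 (SE 0.64, adjusted p = 0.156), with every isoform library above every input after TMM scaling. The test of part use, CDS against 3' UTR, gave -1.75 on the log2 scale and did not pass (diffSpliceDGE, adjusted p = 0.347). The 5' UTR held 24, 11 and 36 counts with exon 5, 37, 41 and 42 without exon 5, and 0 in all inputs.

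Plxna4, also a plexin of class A, had 317, 595 and 588 CPM with exon 5, 346, 232 and 288 CPM without exon 5, and 24, 202 and 134 CPM in the inputs. After TMM scaling, all isoform libraries were above all inputs. By library size alone, input replicate 3 (19 of 75504 counts) was above replicate 2 without exon 5 (197 of 1005472). Its log2 fold over input was 2.06 with exon 5 (SE 0.82, edgeR adjusted p = 0.112) and 1.26 without exon 5 (SE 0.80, adjusted p = 0.323), and under the length correction -0.24 and -0.93. Of its input counts 12 of 60 lay in the CDS, with the other 48 in the 3' UTR. With exon 5 the CDS held 782 counts and the 3' UTR 485, and without exon 5 the CDS held 462 and the 3' UTR 334. Part use differed by 2.61 on the log2 scale (adjusted p = 0.206).

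Plxna1 had 331, 467 and 276 CPM with exon 5, 316, 544 and 409 CPM without exon 5, and 54.1, 272 and 232 CPM in the inputs. The lowest library with exon 5 was just above the highest input after TMM scaling, though not by library size alone, and the isoforms overlapped. The log2 fold over input was 0.94 with exon 5 (SE 0.75, edgeR adjusted p = 0.441) and 1.18 without exon 5 (SE 0.75, adjusted p = 0.322), and under the length correction -1.47 and -1.17.

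Plxnc1, a receptor of the class 7 semaphorin, lies on chromosome 10 from 94790866 to 94945015. It had 451, 324 and 350 CPM with exon 5, 311, 233 and 231 CPM without exon 5, and 493, 349 and 535 CPM in the inputs. The libraries with exon 5 overlapped the inputs, and all libraries without exon 5 lay below all the rest. The log2 fold over input was -0.29 with exon 5 (SE 0.63, edgeR adjusted p = 0.806) and -0.83 without exon 5 (SE 0.63, adjusted p = 0.423).

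The 3' UTR share of Plxnc1 was 25%, 25.6% and 24.9% with exon 5, 17.8%, 10.6% and 10.6% without exon 5, and 9.76%, 1.56% and 0% in the inputs. The 3 groups did not overlap. The 3' UTR counts differed between the isoforms by 1.33 on the log2 scale (SE 1.21, edgeR adjusted p = 0.999), and the use of its CDS against its 3' UTR, isoforms over input, by -2.43 (adjusted p = 0.215).

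Plxnb2 had 92.8, 75.6 and 355 CPM with exon 5, 140, 260 and 234 CPM without exon 5, and 228, 196 and 444 CPM in the inputs. It overlapped throughout, and 1 library with exon 5 was far above the other two. The deposited lengths list no UTR for it, so its counts are all CDS. Plxnb1 and Plxnd1, the receptors best known for Sema4d and for Sema3e, averaged 89.6 ± 35.4 and 116 ± 70.2 CPM with exon 5, 72.3 ± 32.9 and 129 ± 47.8 CPM without exon 5, and 38.1 ± 66.1 and 87.5 ± 59.6 CPM in the inputs (SD, n = 3 each). Both overlapped the inputs.

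The netrin receptors summed to 1180 ± 168 CPM with exon 5, 1240 ± 81.8 CPM without exon 5 and 1290 ± 473 CPM in the inputs (SD, n = 3 each), with all 4 members counted. Neo1, the Dcc-related receptor for netrins and repulsive guidance molecules, lies on chromosome 9 from 58874679 to 59036614. It had 281, 255 and 278 CPM with exon 5, 636, 520 and 670 CPM without exon 5, and 985, 349 and 0 CPM in the inputs. The isoform groups were each narrow and far apart, and the inputs ranged past both. The log2 fold with over without exon 5 was -1.16 (SE 1.02, edgeR adjusted p = 1). Its CDS (-1.49, SE 1.11) and its 3' UTR (-0.75, SE 1.15) both had libraries with exon 5 below all those without exon 5, and neither passed the test (adjusted p = 1 and 0.999).

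Unc5b, an Unc5 receptor also known from vessels, had 387, 417 and 489 CPM with exon 5, 305, 502 and 422 CPM without exon 5, and 631, 507 and 585 CPM in the inputs. All isoform libraries were below all inputs, and the isoforms overlapped. The log2 fold over input was -0.41 with exon 5 (SE 0.57, edgeR adjusted p = 0.69) and -0.49 without exon 5 (SE 0.57, adjusted p = 0.628).

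Unc5c, which lies on chromosome 3 from 141465564 to 141834924, had 351, 564 and 171 CPM with exon 5, 99.2, 126 and 141 CPM without exon 5, and 0, 556 and 162 CPM in the inputs. All libraries with exon 5 were above all those without exon 5, and the inputs spanned both. The log2 fold with over without exon 5 was 1.56 (SE 1.14, edgeR adjusted p = 1). Its 3' UTR held 110, 62 and 59 counts with exon 5, 8, 27 and 25 without exon 5, and 0, 44 and 1 in the inputs. Unc5a had 88.5, 131 and 114 CPM with exon 5, 108, 103 and 77.7 CPM without exon 5, and 0, 92.6 and 0 CPM in the inputs, and overlapped throughout.

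The neuropilins, co-receptors for class 3 semaphorins, were low. Nrp2 had 54.3, 116 and 46.8 CPM with exon 5, 38.6, 70.6 and 23.8 CPM without exon 5, and 222, 125 and 0 CPM in the inputs. Nrp1 averaged 19.3 ± 6.33 CPM with exon 5, 15.3 ± 4.86 CPM without exon 5 and 13.1 ± 13.7 CPM in the inputs (SD, n = 3 each). Both overlapped throughout. The 5' UTR of Nrp2 held 14, 36 and 15 counts with exon 5, 0, 19 and 5 without exon 5, and 0 in the inputs, at an adjusted p of 0.0514 for both isoforms over input in the added edgeR test of 5' UTR counts.

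The Eph receptors that the symbol rule found were nearly absent except for Epha10, a member of the family without a working kinase. It had 14.3, 128 and 95.5 CPM with exon 5, 125, 8.23 and 53.2 CPM without exon 5, and 0, 27.2 and 0 CPM in the inputs. Its libraries overlapped throughout, and its CDS held 97.5% of its counts with exon 5 and 95.4% without exon 5. Epha2 had 18 counts in a single library with exon 5. Ephb3 and Ephb4 averaged 4.84 ± 7.19 and 2.5 ± 4.32 CPM with exon 5, 11.3 ± 10.8 and 4.12 ± 6.15 CPM without exon 5, and 1.82 ± 3.15 and 0 CPM in the inputs (SD, n = 3 each).

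**Figure D2:**
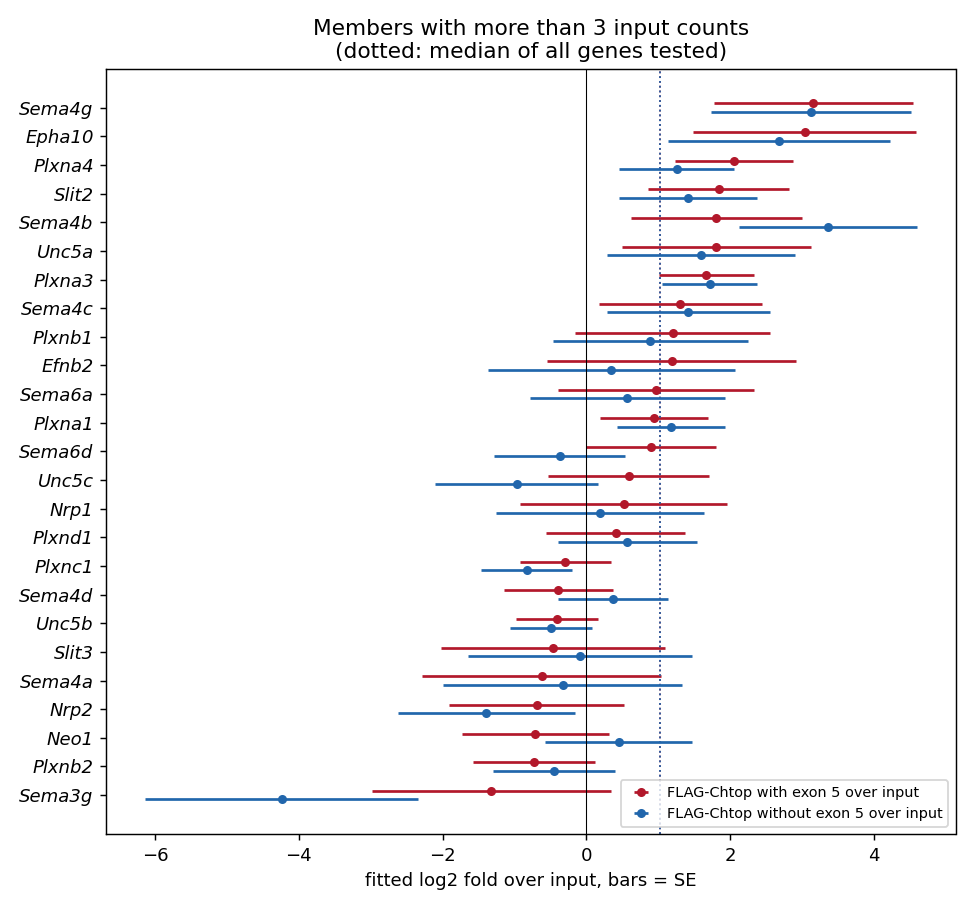
Fitted log2 fold of gene totals over input (horizontal axis, bars give the SE of the fit) for the 25 tested guidance genes with more than 3 input counts, with exon 5 (red, upper) and without exon 5 (blue, lower). The dotted line is the median of all tested genes, 1.03 in both comparisons, and the points lie on both sides of it.

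The guidance genes have long coding sequences, and coding length went with the calls over all genes. The median CDS of the tested guidance genes was 3071 bases, against 1698.5 bases for all tested genes. Over all genes with a CDS above 4000 bases, 27.3% were called higher than input with exon 5 and 26.3% without exon 5, with median log2 folds of 2.12 and 2.06. Of the 10 guidance genes in that class, 7 plexins, Neo1, Slit2 and Slit3, the count called was 0 with either isoform, and their median log2 folds were 0.67 and 0.73. At a CDS of 2000 to 4000 bases the median log2 folds of 15 guidance genes were 0.90 with exon 5 and 0.37 without exon 5, against 1.45 and 1.47 for all genes. With each isoform 1 of the 15 was called higher, against 10.3% and 9.97% of all genes. The 2 guidance genes with a CDS up to 2000 bases, on few input counts, went the other way. Their medians were 3.60 and 3.76, against 0.48 and 0.48 for all genes. Under the correction for the trend with gene length, Plxnc1 and Unc5b were called lower, against genes of like length, with each isoform.

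Overlap was judged in TMM-scaled CPM. The groups did not overlap, isoform above input, in 7 of the 27 guidance genes with exon 5 (33.1% of all tested genes) and in 8 without exon 5 (35.9% of all). Isoform libraries lay all below the inputs in 1 guidance gene with exon 5 (3.4% of all) and in 2 without exon 5 (3.43% of all). They were Unc5b with both isoforms and Plxnc1 without exon 5.

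The counts of the guidance genes were also summed by part of the gene. The CDS held 60.7 ± 1.33% of their counts with exon 5, 63.6 ± 0.651% without exon 5 and 63.0 ± 9.7% in the inputs (SD, n = 3 each). Over all genes the CDS share was 67.2 ± 1.21% with exon 5, 67.7 ± 1.06% without exon 5 and 46.6 ± 1.12% in the inputs. All genes thus had a larger CDS share in the isoforms, while the guidance genes in the inputs, on 445 to 782 counts a library, spanned the isoform values. Their 3' UTR share was 28.6 ± 1.08% with exon 5, 28.2 ± 1.05% without exon 5 and 35.3 ± 7.23% in the inputs, against 29.6%, 28.8% and 50.2% over all genes. Their 5' UTR share was 10.8 ± 0.361% with exon 5, 8.17 ± 0.883% without exon 5 and 1.75 ± 3.03% in the inputs. Over all genes it was 3.19%, 3.52% and 3.11%. The input value rests on replicate 2 alone, at 5.24%, with 0% in the other inputs. Slit2 supplied 70.2% of the guidance genes' 5' UTR counts in the isoform libraries. Over CDS and 3' UTR counts alone, the CDS share of the guidance genes was 68.0% with exon 5 and 69.3% without exon 5.

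**Figure D3:**
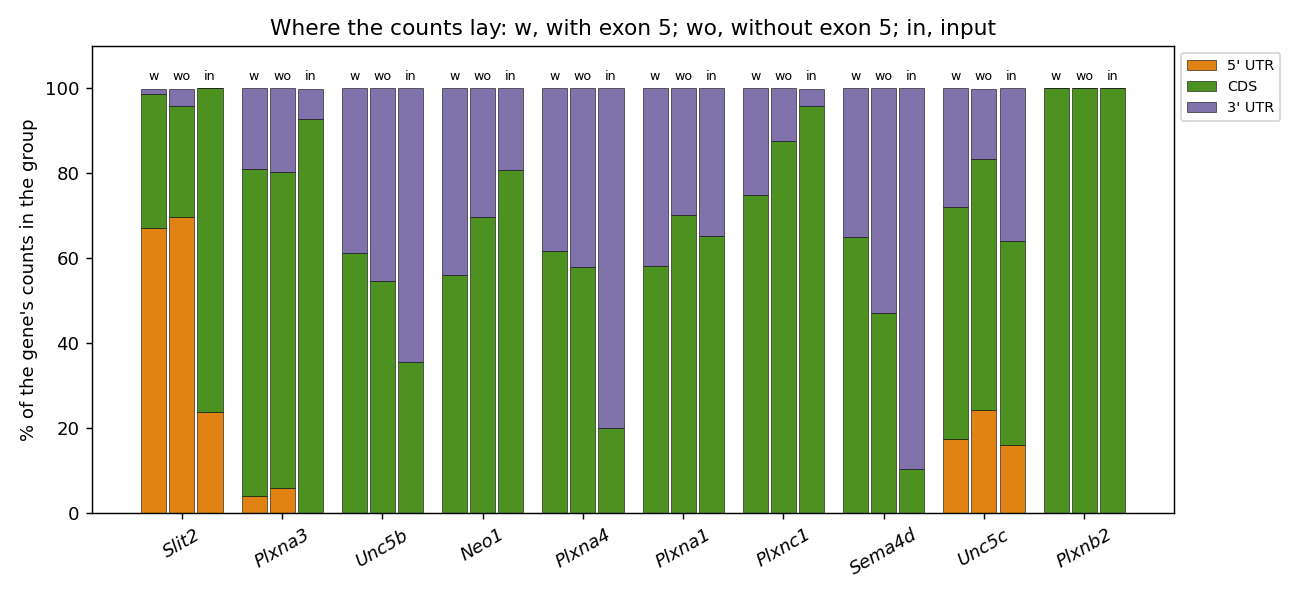
Share of a gene's counts (vertical axis, % of the summed counts of the group's 3 libraries) in the 5' UTR, CDS and 3' UTR for 10 guidance genes, with bars for the isoform with exon 5 (w), the isoform without exon 5 (wo) and the input (in). Slit2 is led by its 5' UTR in both isoforms at 67.1% and 69.8%, and the input bars of Sema4d and Plxna4 are led by the 3' UTR. Parts with no entry in the deposited lengths, such as both UTRs of Plxnb2, are drawn at 0.

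Tested part by part with both isoforms against input (edgeR quasi-likelihood test), 1 of 25 guidance genes was higher in the CDS, Sema6c, with 66 counts with exon 5, 87 without exon 5 and 0 in the inputs. It was at least 1.64-fold the input limit (adjusted p = 0.0472), and 17.6% of all 6376 genes were called higher and 1.41% lower there. The isoform libraries lay all above the inputs in the CDS of 5 guidance genes (33% of all genes) and all below in 1, Plxnc1 (1.16% of all genes). Those above were Sema6c, Plxna4, Sema4c, Unc5a and Plxna3. In the 3' UTR 3 of 19 were higher, Sema4g, Sema4b and Plxna3, against 14.5% of all 4984 genes, and 0 lower, against 1.34%. The median log2 fold was 0.41 for guidance genes and 1.54 for all genes in the CDS, and 1.33 and 1.34 in the 3' UTR. For tested genes with a name from the isoform table it was 1.91 in the CDS and 1.88 in the 3' UTR.

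Part use, the CDS against the 3' UTR of the same gene, was called in 0 of 17 guidance genes (edgeR's diffSpliceDGE), with 1 at an unadjusted p under 0.05, against 1143 of all 4037 genes. Scaling by library size alone also called 0. Another filter, a mean of at least 10 counts in both parts, called 1, Sema4a, which is not among the 17. Of all 4037 genes 5.35% were called with more CDS use and 1.07% with less. The median log2 difference was -0.67 for the 17 and 0.71 for all genes. It ran from -5.50 for Plxnb1, whose 3' UTR had 80 isoform counts and 0 input counts, to 3.50 for Sema4d.

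Each of these calls rests on few input counts and on single libraries. The number of guidance genes called ranged over 0 to 8 in the CDS and 0 to 7 in the 3' UTR on leaving out 1 library. It was 0 for both parts without any 1 of the isoform libraries, and 8 and 7 without input replicate 2, the deepest input.

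The isoforms were also set against each other, the question the study was built to ask. No guidance gene was called: 0 of 27 in gene totals, 0 of 25 in the CDS and 0 of 19 in the 3' UTR by edgeR's quasi-likelihood test, with 0 of each at an unadjusted p under 0.05. Over all genes the share called was 0% in each of the 3, with 93 of 8342 genes in totals, 82 of 6376 in the CDS and 93 of 4984 in the 3' UTR at an unadjusted p under 0.05. No other setting, DESeq2 and limma-voom included, called a guidance gene between the isoforms.

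In gene totals the libraries with exon 5 lay all above those without exon 5 in 5 guidance genes, Sema3g, Unc5c, Sema6d, Plxnc1 and Slit2 (6.49% of all genes). They lay all below in 2, Neo1 and Sema4b (7.43% of all genes). The 3 highest log2 folds with over without exon 5 were those of Sema3g, Unc5c and Sema6d, and the 3 lowest those of Sema4b, Efna2 (-1.17, SE 1.69) and Neo1. The median over the 27 was 0.21 and over all genes -0.03.

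In the CDS the groups did not overlap for Plxna4, with exon 5 above (6.46% of all genes), and for Neo1 and Sema4b, with exon 5 below (6.98% of all genes). In the 3' UTR they did not overlap for Unc5c, Sema6d and Plxnc1, with exon 5 above (5.06% of all genes), and for Neo1 and Sema4d, with exon 5 below (7.76% of all genes). In the CDS the median log2 fold of the guidance genes was 0.07, and in the 3' UTR 0.03.

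**Figure D4:**
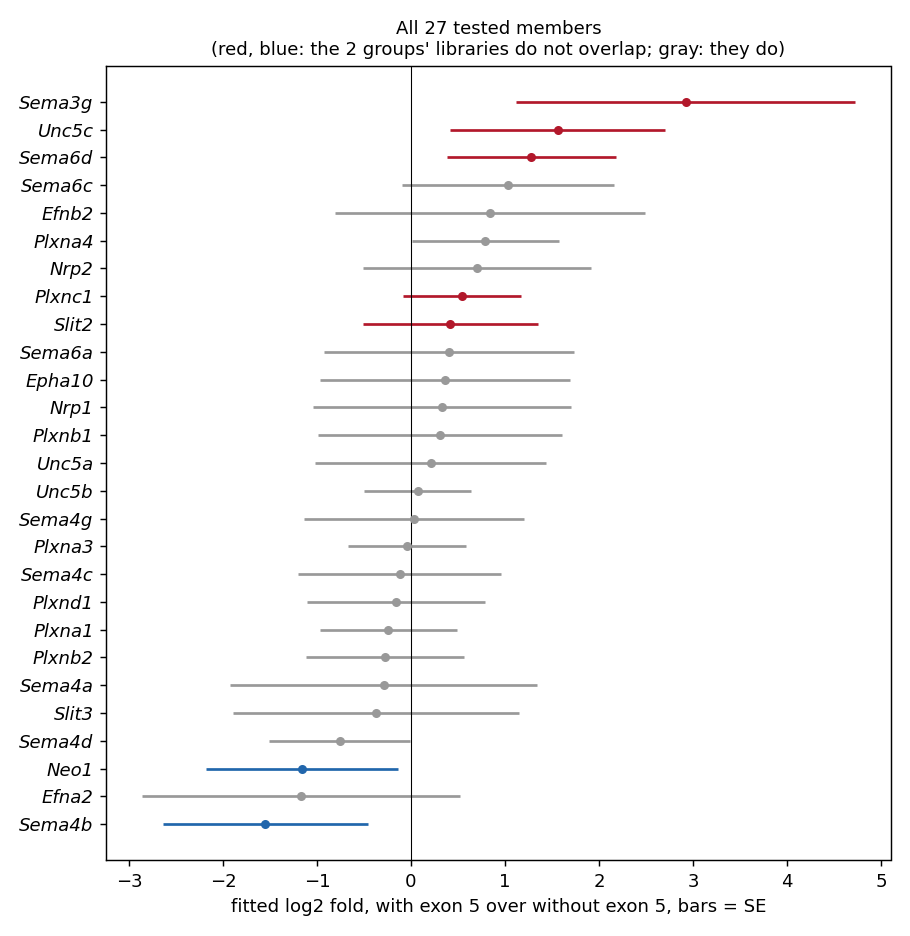
Fitted log2 fold of gene totals, with exon 5 over without exon 5 (horizontal axis, bars give the SE of the fit), for the 27 tested guidance genes. Red and blue mark genes whose 3 libraries with exon 5 lie all above (5 genes) or all below (2 genes) the 3 without exon 5, and gray marks overlap; no gene passed the test.

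The authors' deposited table gives a log2 fold between the isoforms, with over without exon 5, and a class for each part. The heading of the class names a cutoff on the log2 fold and the same direction in all replicates, and no significance test. In the CDS it classes 0 of 21 guidance genes with the isoform with exon 5 and 2 with the isoform without exon 5, Neo1 (-1.46) and Sema4b (-1.96), against 7.41% and 8.32% of all 4532 genes it lists. In the 3' UTR the authors' deposited table classes Plxnc1 (1.47) and Sema6d (1.57) with the isoform with exon 5 and Sema4d (-1.43) with the other, of 13 guidance genes, against 9.87% and 10.1% of 2787 genes. In the 5' UTR it lists 4 guidance genes and classes Nrp2 (1.92) with the isoform with exon 5, against 9.07% of 408 genes. The remaining entries of guidance genes in the authors' deposited table, such as all those of Slit2, Plxna3, Plxna4 and Unc5c, are classed with both isoforms. These classes come from the same libraries as the tests above.

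Genes that work beside these ligands and receptors were counted from 2 lists. Of 42 co-receptors and other guidance cues, 27 were named and 19 tested. Over input, 2 of 19 were higher with exon 5 (8.31% of all genes), and 2 were higher and 1 lower without exon 5 (8.12% and 0.587% of all genes). Celsr3, an atypical cadherin needed for axon tracts, averaged 1420 CPM with exon 5, 1500 CPM without exon 5 and 67.2 CPM in the inputs, a log2 fold over input of 4.38 with exon 5 (SE 0.61, edgeR adjusted p = 0.00157) and 4.46 without exon 5 (SE 0.61, adjusted p = 0.00143). Ntng2, a membrane-anchored netrin G, had 470 counts with exon 5, 381 without exon 5 and 2 in the inputs. The ratio was 46.8 with exon 5 (exact 95% interval 12.9 to 388) and 33.2 without exon 5 (9.12 to 275). The matrix receptor subunit Itgb1 was lower without exon 5, at 161 CPM against 805 CPM in the inputs (log2 fold -2.31, SE 0.68, edgeR adjusted p = 0.0466). With exon 5 it was lower by a like amount, at 184 CPM, and just missed the threshold (log2 fold -2.13, SE 0.68, adjusted p = 0.0568). Its log2 fold with over without exon 5 was 0.18 (SE 0.65). The median log2 fold of this list was 1.45 with exon 5 and 1.13 without exon 5.

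Of 74 genes of signalling inside the growth cone, 63 were named and 57 tested. With exon 5, 7 were higher than input and 1 lower (8.31% and 0.863% of all genes), and without exon 5, 7 were higher and 0 lower (8.12% and 0.587% of all genes). The 3 highest fitted folds with exon 5, which rest on 0 or 1 input counts and give no order of size, were those of Tiam1, a Rac exchange factor, Cdk5, a neuronal kinase, and Farp1, a plexin-associated exchange factor. Tiam1 had 623 counts with exon 5, 630 without exon 5 and 0 in the inputs, at least 13.3-fold and at least 11.3-fold the input limit. Cdk5 was at least 2.55-fold with exon 5 and at least 2.17-fold without exon 5, and Farp1 had 1 input count and a ratio of 45.2 with exon 5 (exact 95% interval 8.04 to 1790).

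Among the others, Abl1, a kinase of Robo and actin signalling, was higher by 2.93 on the log2 scale with exon 5 (SE 0.70, edgeR adjusted p = 0.0236), and Map1b, a microtubule-associated protein of growing axons, by 1.90 (SE 0.30, adjusted p = 0.00449). The GTPase Rhoa was lower with exon 5, at 2.35 CPM with exon 5 and 14.8 CPM without exon 5, against 213 CPM in the inputs (log2 fold -6.30 with exon 5, SE 1.68, adjusted p = 0.034). Without exon 5, Evl, an actin regulator of the Ena/VASP family with 0 input counts, was at least 11-fold the input limit, on 427 counts with much spread (203 ± 171 CPM, SD, n = 3). The median log2 fold of this list was 1.28 with exon 5 and 1.58 without exon 5, and of both lists 0 genes were called between the isoforms.

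By part, 15 of 53 signalling genes were higher in the CDS with both isoforms than in the inputs (17.6% of all genes), among them Arhgef11, a guanine nucleotide exchange factor that binds plexin B receptors. It had 3795 CDS counts in the isoform libraries and 0 in the inputs, at least 33.6-fold the input limit (edgeR adjusted p = 0.0014). In the 3' UTR 8 of 42 were higher (14.5% of all genes) and 1, the actin-severing protein Cfl1, lower (log2 fold -2.99, SE 0.92, adjusted p = 0.0357). Of the co-receptors and cues, 4 of 18 were higher and 1 lower in the CDS, and 2 of 13 higher in the 3' UTR, beside the same shares of all genes.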

How the data were processed

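Whole-number counts of reads in each gene's 5' UTR, CDS and 3' UTR, and the total of these parts, are what the authors deposited (file headers and values). The submitters' processing notes name mm10, TopHat2 and DESeq2 without versions. How reads were assigned to genes, with or without strand and with or without collapsing by the random primer bases, was not given in the sources used here. Reads of overlapping or antisense genes therefore cannot be told apart. In the authors' deposited table of isoform comparisons, log2 fold changes and classes were used. A further 27 columns of per-sample values, the normalized signal among them, were not used.

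Gene totals and parts were tested with edgeR 4.0.16 in R 4.3.3 (robust quasi-likelihood F-test on TMM-scaled libraries; genes kept by filterByExpr at min.count 10 and min.total.count 15), all 9 libraries in 1 fit with no covariate, and Benjamini-Hochberg adjustment over all tested genes at 0.05. diffSpliceDGE tested part use. Each script's test was checked on simulated data. A fold against inputs at 0 is a lower bound against 3 counts per input library. With 1 to 3 input counts, a ratio of sums with its exact 95% interval is given. Alternatives were DESeq2 1.42.0, limma-voom (limma 3.58.1), other scalings, filters, blocks, a length correction and each library left out.

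Guidance genes are all 45 that the symbol rule finds. Named with values are genes past 0.05 in a test, the 10 with the highest CPM, the top gene of each family, and the 3 highest and lowest per isoform comparison. For the added lists they are the 3 highest and lowest called, Abl1, Map1b, Evl, Arhgef11 and Cfl1 being chosen once values were seen. Other members are named to account for all. Members and lists were chosen with earlier results of these data known. Input libraries were matched to labels by primer number. Column headers give 2 of the inputs another replicate number than the labels do.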

Additional observations from a re-analysis of the deposited data

Results flagged for a closer look

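Neo1 lay on opposite sides of the input mean in the isoforms. All 3 libraries with exon 5 (281, 255 and 278 CPM) lay below the mean of the inputs, and all 3 without exon 5 (636, 520 and 670 CPM) lay above it, at 445 ± 499 CPM (SD, n = 3). The log2 fold with over without exon 5 was -1.16 (SE 1.02), and the edgeR quasi-likelihood test of that difference gave an adjusted p of 1. Over the alternative settings it ranged from -1.27 to -1.10. The log2 fold over input was -0.71 with exon 5 (adjusted p = 0.701) and 0.45 without exon 5 (adjusted p = 0.819), and over the settings it ran from -2.81 to 1.38 with exon 5 and from -1.60 to 2.56 without exon 5, so that both directions turned. Fitted folds over input also had opposite signs for Sema4d, Sema6d and Unc5c. The inputs of Neo1 were 985, 349 and 0 CPM, so their mean rests mainly on replicate 1.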

How the results depend on the processing

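The inputs set the limits: with 75504 to 173342 counts each, many guidance genes had 0 to 3 counts in an input, and most calls changed with a single library. For gene totals over input, 1 guidance gene was called with each isoform. With exon 5 the number was 0 with library size alone, with only the groups compared and with a replicate block. It was 2 (Plxnc1 and Unc5b, both lower against genes of like length) under a correction for a length trend. Without exon 5 it was 0 with DESeq2-type size factors, library size alone, limma-voom, only the groups compared and a replicate block, 2 (the same 2 genes) under the length correction, and 4 (Plxnc1, Sema3g, Sema4b and Sema6c) with DESeq2. The 0 with a replicate block held for numbers of the labels and of the column headers. In the CDS, 0 were called with the block. In the 3' UTR, 0 were called with library size alone or with factors of the gene totals, and 1 (Sema4g) with the block. In the 5' UTR 0 were called with library size alone, and in part use 1 (Sema4a, not tested as reported) with a mean of at least 10 counts per part. The cause of these changes was not tested.

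Leaving out 1 library gave 0 to 7 called guidance genes with exon 5, 0 to 6 without exon 5, 0 to 8 in the CDS, 0 to 7 in the 3' UTR, 0 to 2 in part use and 1 to 3 in the 5' UTR. The highest numbers with exon 5 (7), without exon 5 (6), in the CDS (8) and in the 3' UTR (7) came without input replicate 2. Between the isoforms the number was 0 in every setting. Over all genes, the number called ran from 29 to 2411 with exon 5 (765 as reported), 18 to 2354 without exon 5 (726), 226 to 2407 in the CDS (1210), 217 to 1534 in the 3' UTR (792), 23 to 392 in part use (259) and 19 to 281 in the 5' UTR (282). The median of all genes over input was 1.03 with TMM and 0.39 with exon 5 and 0.37 without exon 5 with library size alone. The CDS share of the guidance genes was 68.0% with exon 5 and 69.3% without exon 5 over CDS and 3' UTR counts alone, and 58.1% and 64.7% as a mean of the genes' own shares.

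Some log2 folds over input changed sign. Those under the length correction are against genes of like length. Under the length correction they were, with exon 5, -1.47 for Plxna1, -0.71 for Plxna3, -0.24 for Plxna4, -0.41 for Slit2 and -1.29 for Unc5c. Without exon 5 they were -1.17 for Plxna1, -0.63 for Plxna3, -0.93 for Plxna4, -0.77 for Slit2, -1.60 for Neo1 and -1.89 for Sema4d. Without exon 5, Neo1 was -0.06 with DESeq2-type size factors and with DESeq2, -0.28 with library size alone and -0.11 without input replicate 3. Sema4d was -0.07, -0.07 and -0.40 under the first 3 of these. Unc5c was 0.97 with limma-voom and 0.68 without input replicate 2, and Plxnb2 0.01 without input replicate 3. With exon 5, Neo1 was 1.38 with limma-voom, and Sema4d 0.15 without input replicate 2. Over libraries left out in turn, Neo1 ran from -1.28 to 0.72 with exon 5 and -0.11 to 1.91 without exon 5, Sema4d from -0.70 to 0.15 with exon 5, and, without exon 5, Unc5c from -1.44 to 0.68 and Plxnb2 from -0.59 to 0.01.

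Same-numbered libraries of the 2 isoforms had deviations that correlated at -0.001, 0.031 and 0.039. For isoforms and inputs they ran from -0.015 to 0.023 by the labels and from 0.014 to 0.037 by the column headers. With counts this sparse, such values cannot show whether same-numbered libraries share a day or batch, and this was not tested. The tests of 5' UTR counts and their alternatives were chosen after seeing the data.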
